A study of Macaca mulatta with 16 samples.

Results

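The comparison asked what betamethasone-acetate (Beta-Ac) changed in a fetal lung that was also exposed to lipopolysaccharide (LPS). It set 3 rhesus macaque fetuses given LPS and Beta-Ac (animals 248, 249 and 255) against 3 given LPS alone (animals 239, 240 and 242), 6 of the 16 lungs in the series, chosen by their labelled treatments and by delivery 5 days after treatment. All 6 received 1 mg LPS into the amniotic fluid, and the first 3 pregnancies also received 0.125 mg/kg Beta-Ac into muscle. The LPS animals were treated at 129, 128 and 126 days of gestation and delivered at 134, 133 and 131 days. The LPS + Beta-Ac animals were treated at 126, 127 and 126 days and delivered at 131, 132 and 131 days. The series also held 4 untreated preterm controls delivered between 131 and 135 days, 2 untreated term controls delivered at 156 and 157 days, and 4 animals delivered 16 hours after the same LPS dose. Lungs given Beta-Ac alone were not analysed here, so the steroid was measured on top of LPS. Polyadenylated RNA of lung tissue was sequenced, and reads were counted per gene.

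LPS is a component of the wall of Gram-negative bacteria that is sensed by Toll-like receptor 4 with its partners CD14 and LY96, and it sets off cytokine release and the entry of neutrophils and monocytes. Glucocorticoids bind the receptor encoded by NR3C1, which moves to the nucleus, switches on genes such as FKBP5, TSC22D3 and PER1, and restrains many inflammatory genes. In the fetal lung, glucocorticoids are known for advancing surfactant production by alveolar type 2 cells and for thinning the mesenchyme, and they are given before preterm birth for that reason.

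The libraries held 20214144 to 27160740 counts in the LPS group and 24354892 to 27408405 in the LPS + Beta-Ac group. Defining lung transcripts were abundant in all 6, with SFTPC at 3892 to 7446 CPM (counts scaled to a common library size and composition). Y-linked transcripts were present in 2 of 3 LPS animals (239 and 240) and in 1 of 3 LPS + Beta-Ac animals (249). LPS animal 240 stood apart in transcripts of heart muscle. MYH7, the slow cardiac myosin heavy chain, was at 525 CPM there and between 0.301 and 2.32 CPM in the other 5 animals, and a list of heart muscle genes put together after the values were seen summed to 85.6 to 1521 CPM with LPS and to at most 103 CPM with LPS + Beta-Ac. The part of this tissue and of the Y-linked difference in the results was not tested, apart from the values without animal 240 and with Y-linked transcripts in the model given in the closing section.

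Adding Beta-Ac was accompanied by higher transcripts of receptors and other genes of myeloid cells. Of 19199 genes tested, 20 passed an adjusted p below 0.05 with a change of at least 2-fold (0.104% of genes tested), and all 20 were higher with Beta-Ac, by 2.05-fold to 9.32-fold. They included SOD2, IDO1, CD163, TLR4, FCAR, FCGR2A, PTAFR and C5AR1. The test was limma on log2 CPM with a spread shared by all 16 lungs, and adjusted p-values (Benjamini-Hochberg) and log2 changes below are from it. At an unadjusted p below 0.05 there were 648 genes higher (3.38%) and 277 lower (1.44%), together 4.82% of genes tested, which is no more than that threshold admits without any difference. No gene was called lower by limma or limma-voom. The median log2 change over all genes tested was -0.00052. In all 20 called genes the lowest LPS + Beta-Ac animal was above the highest LPS animal, a separation that 6.33% of all genes showed in that direction and 5.05% in the other. The number of calls depended on how the spread was estimated, since a fit of the 6 animals alone called 0 genes, with 809 higher and 418 lower at an unadjusted p below 0.05, and limma-voom on all lungs called 3 genes.

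**Figure D1:**
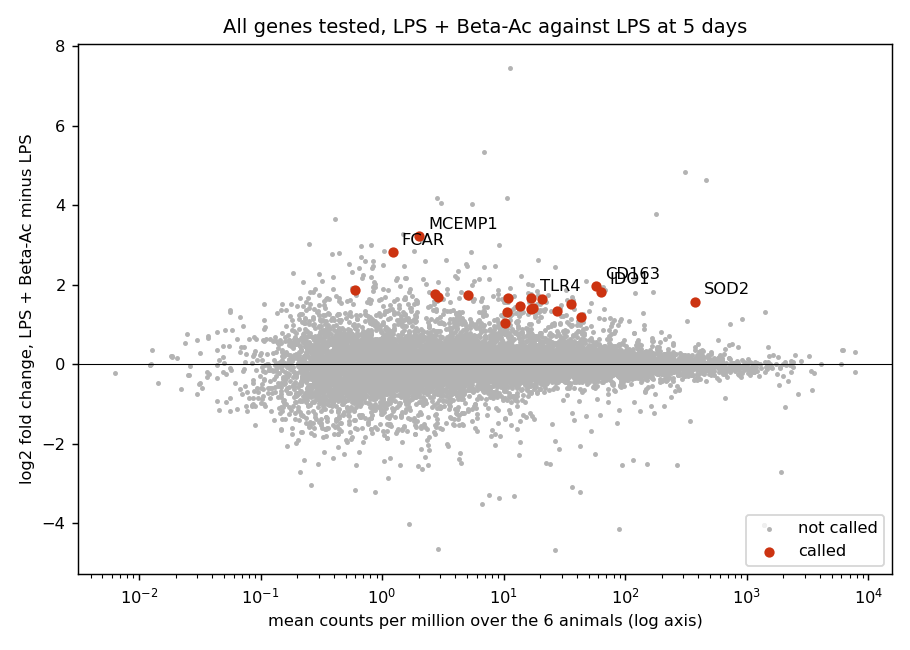
Log2 fold change (LPS + Beta-Ac minus LPS) of each gene tested against its mean CPM over the 6 animals on a log axis. The 20 called genes (red) all lie above 0, from RELT at 1.04 to MCEMP1 at 3.22.

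SOD2, the mitochondrial superoxide dismutase that is strongly induced by inflammatory signals, had the smallest adjusted p. Its level was 172, 179 and 209 CPM in the LPS animals and 653, 579 and 453 CPM in the LPS + Beta-Ac animals. The groups did not overlap, and the log2 change was 1.58 ± 0.16 (SE, n = 3 per group, limma adjusted p = 0.00073). Preterm controls lay between 69.6 and 91.8 CPM and the lungs at 16 hours after LPS between 6018 and 8666 CPM. The level with Beta-Ac was therefore above that of LPS alone at 5 days and far below that of the acute response.

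Receptors for the constant parts of antibodies included 2 called genes. FCAR, the receptor for IgA on neutrophils and monocytes, was at 0.327, 0.230 and 0.190 CPM with LPS and at 2.60, 2.32 and 1.66 CPM with Beta-Ac added. All 3 LPS + Beta-Ac animals were above the LPS animals, by 2.82 ± 0.32 on the log2 scale (limma adjusted p = 0.0024), although the LPS level rested on 6.33 counts per library on average. FCGR2A, an activating receptor for IgG, was at 14.8, 16.7 and 23.7 CPM against 62.3, 44.6 and 51.5 CPM, a log2 change of 1.53 ± 0.20 (adjusted p = 0.00877). Of the 8 genes tested in a list of Fc receptors put together after the values were seen, these 2 were called, and 4 others did not overlap between groups without passing the adjusted threshold, among them FCER1G, the signalling chain that Fc receptors share (log2 difference 1.33 ± 0.29, adjusted p = 0.134). The list median was 1.29, and IgG receptor genes have close paralogs between which reads may have been split. FCGRT, the IgG transporter of epithelium and endothelium, overlapped between groups, at 0.02 with a 95% interval of -0.55 to 0.58.

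Genes that signal downstream of these receptors lay in the same direction. VAV1, an exchange factor that relays receptor signals in blood cells, was at 10.4, 7.29 and 9.82 CPM with LPS and at 27.1, 29.4 and 17.5 CPM with LPS + Beta-Ac. It rose by 1.40 ± 0.25 on the log2 scale (limma adjusted p = 0.0496). The groups did not overlap, and animal 255 was the lowest of its group. Of 11 genes of Fc receptor signalling, also listed after the values were seen, 9 did not overlap in the higher direction, with a median of 1.05. The kinases LYN (1.05 ± 0.20, adjusted p = 0.0589) and FGR (1.09 ± 0.21, adjusted p = 0.0684) and the exchange factor DOCK2 (1.33 ± 0.24, adjusted p = 0.0535) lay just outside the threshold.

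The phagocyte NADPH oxidase, which makes superoxide during the oxidative burst, was another group listed after its values were seen. Its 6 subunit genes had a median log2 difference of 1.15. CYBB, the membrane subunit that carries the electrons, was at 28.7, 21.6 and 29.2 CPM with LPS and at 93.5, 142 and 76.2 CPM with LPS + Beta-Ac, a difference of 1.93 ± 0.35 that missed the threshold (limma adjusted p = 0.0535). The groups did not overlap for 5 of the 6 subunits, CYBA being the exception.

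Receptors for chemical attractants, a further list of that kind, included 2 called genes among 14 and had a median of 1.04. C5AR1, the receptor for complement fragment C5a, was at 15.4, 12.3 and 18.9 CPM against 36.7, 50.6 and 30.9 CPM. PTAFR, the receptor for platelet-activating factor, was at 6.93, 6.22 and 8.30 CPM against 23.1, 20.6 and 15.9 CPM. Every LPS + Beta-Ac animal was above every LPS animal for both, with log2 changes of 1.33 ± 0.22 and 1.46 ± 0.23 (limma adjusted p = 0.0327 for each). The formyl peptide receptors FPR1 (2.22 ± 0.55, adjusted p = 0.219) and FPR2 (2.59 ± 0.70, adjusted p = 0.284) had larger differences with wider errors and were not called. CXCR2, which senses CXCL8, overlapped between groups, with a difference of -0.12 and an interval of -1.08 to 0.83.

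LPS recognition itself was represented by TLR4. It was at 8.31, 5.95 and 9.73 CPM in the LPS animals and at 32.3, 23.2 and 20.8 CPM in the LPS + Beta-Ac animals. The change was 1.66 ± 0.27 (limma adjusted p = 0.0327) with no overlap. Of 17 genes of LPS sensing this was the 1 called, while 15 were higher, 9 of the 17 were higher without overlap, and the median was 0.66. CD14 (0.80 ± 0.22, adjusted p = 0.284), TLR1 (1.14 ± 0.22, adjusted p = 0.069) and TLR2 (0.89 ± 0.33, adjusted p = 0.712) did not overlap between groups either. The signalling proteins TRAF6 (-0.10 ± 0.12) and IRAK4 (0.06 ± 0.12), which most cells share, lay near 0.

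CD163 is the scavenger receptor for haemoglobin-haptoglobin complexes on macrophages and is known to be induced by glucocorticoids. It was at 26.1, 18.3 and 24.5 CPM with LPS and at 92.7, 122 and 61.9 CPM with LPS + Beta-Ac, so that the groups were well separated. Its change was 1.97 ± 0.35 (limma adjusted p = 0.0496). IDO1, which starts the breakdown of tryptophan and restrains T cells, was at 27.9, 22.6 and 29.2 CPM against 97.0, 136 and 62.8 CPM and rose by 1.83 ± 0.31 (adjusted p = 0.0364). Further steps of that pathway, KMO (1.63 ± 0.40, adjusted p = 0.222) and KYNU (1.28 ± 0.36, adjusted p = 0.304), did not overlap between groups and were not called. The 9 genes of tryptophan breakdown, listed after their values were seen, had a median of 0.35. The largest called change was that of MCEMP1, a membrane protein of mast cells and myeloid cells, at 0.653, 0.192 and 0.237 CPM against 5.04, 2.82 and 3.12 CPM (3.22 ± 0.47, adjusted p = 0.0232).

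A further 8 called genes changed by 1.04 to 1.87 on the log2 scale. They were the myeloid immunoreceptors LILRA5 (1.78 ± 0.30) and CLEC4A (1.30 ± 0.20), the neutrophil surface protein CD177 (1.70 ± 0.29), the TNF receptor family member RELT (1.04 ± 0.17), the semaphorin SEMA4A (1.18 ± 0.21), the monocarboxylate transporter SLC16A6 (1.87 ± 0.33), and C1H1orf162 (1.76 ± 0.29), together with 1 gene without a symbol (1.68 ± 0.27). Their limma adjusted p-values lay between 0.028 and 0.0496. CLEC4A, RELT, SEMA4A and SLC16A6 were chosen for naming after their values were seen. In 17 of the 20 called genes animal 255 was the lowest of the LPS + Beta-Ac group, and in 13 animal 242 was the highest of the LPS group. Without animal 255 the calls numbered 57, of which 19 were among the 20, and without animal 240 they numbered 2.

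**Figure D2:**
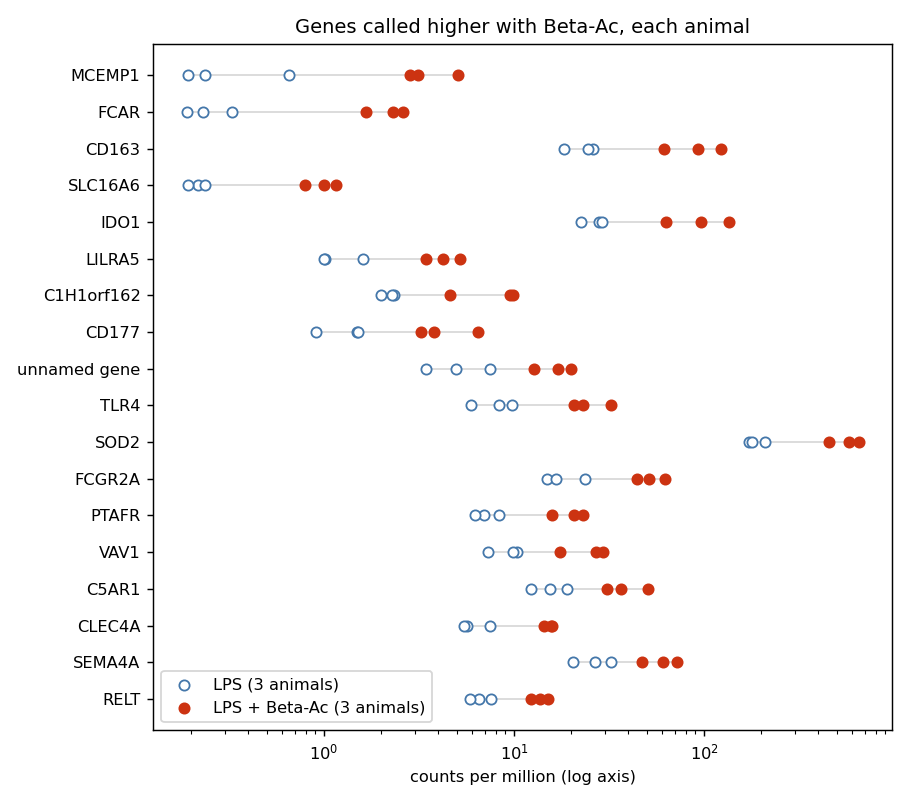
Level of 18 of the 20 called genes in the 3 LPS animals (open blue) and the 3 LPS + Beta-Ac animals (filled red), in CPM on a log axis, ordered by log2 change. For every gene shown the 3 red points lie to the right of the 3 blue points.

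Levels in the other lungs put these changes in context. For 19 of the 20 called genes the preterm mean was below the LPS mean at 5 days, and for 16 every preterm animal was below every LPS animal, SLC16A6 being the gene whose preterm mean was not lower. For all 20 the mean at 16 hours after LPS was above the LPS + Beta-Ac mean, and for 18 every animal at 16 hours was above every LPS + Beta-Ac animal. CD163, for example, was at 4.39 to 11.2 CPM in preterm controls and at 62.8 to 131 CPM at 16 hours. Relative to preterm controls, TLR4 differed by 0.67 ± 0.25 with LPS and by 2.33 ± 0.25 with LPS + Beta-Ac, and SOD2 by 1.20 ± 0.15 and 2.78 ± 0.15, values that share their control animals.

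Markers of the cells that carry these receptors differed alongside them. The lists share genes with the paragraphs above, among them CD163, CD14, CYBB and FCER1G (macrophage) and FPR1, FPR2 and CXCR2 (neutrophil). The values of these genes therefore count in both places. Of 25 macrophage genes tested, 21 were higher without overlap, 18 were higher at an unadjusted p below 0.05 and 1 (CD163) was called, with a list median of 1.19. Their summed level was 509 to 642 CPM with LPS and 946 to 1746 CPM with LPS + Beta-Ac. Of 23 neutrophil genes, 14 were higher without overlap, 15 were higher at an unadjusted p below 0.05 and 0 were called by limma or limma-voom. Their median was 1.53, with a summed level of 223 to 237 CPM against 446.5 to 908 CPM. No gene of either list was at 0 in all 6 lungs. Over all genes tested, 6.33% were higher without overlap and 3.38% were higher at an unadjusted p below 0.05. Lymphocyte markers also lay higher, by less. Of 25 T, NK and B lymphocyte genes tested, 21 were higher and 4 lower, with a median of 0.343. Without overlap 5 were higher and 0 lower, 3 were higher at an unadjusted p below 0.05, and 0 were called by limma. In bulk tissue, more cells of a type and more RNA per cell cannot be told apart.

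Within the macrophage list, the complement chains C1QA (0.81 ± 0.29), C1QB (0.96 ± 0.32) and C1QC (0.99 ± 0.29), the growth factor receptor CSF1R (1.14 ± 0.28) and the mannose receptor MRC1 (1.49 ± 0.42) all separated the groups, with limma adjusted p-values from 0.224 to 0.666. MARCO, a scavenger receptor of alveolar macrophages, was at 1.96, 3.45 and 0.380 CPM against 11.9, 33.3 and 4.12 CPM, and was at 0 in all 4 preterm controls. Its difference of 3.01 ± 1.10 was not called (adjusted p = 0.717), and the animals of each group spread widely. FABP4, a lipid carrier of alveolar macrophages, went the other way, at -1.55 ± 0.70 (adjusted p = 1).

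Within the neutrophil list, S100A9, a subunit of calprotectin, was at 6.57, 20.1 and 26.9 CPM against 144, 41.9 and 45.9 CPM. Animal 248 was far above the others. The difference was 2.09 ± 0.52 (limma adjusted p = 0.228). MPO, the granule peroxidase made by neutrophil precursors, was at 0.472, 0.806 and 0.380 CPM against 26.3, 3.95 and 0.655 CPM, so that the groups overlapped and animal 248 stood far above the rest. As a mean over the list, neutrophil genes stood at 1.26 to 1.56 log2 CPM with LPS, 2.54 to 3.49 with LPS + Beta-Ac and 4.80 to 5.03 at 16 hours after LPS.

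Red cell genes lay higher on balance, without a call. HBA, an alpha-globin, was at 336, 1029 and 489.8 CPM against 1186, 1336 and 1139 CPM, and the embryonic globin HBE1 at 423, 1314 and 837 CPM against 1892, 2450 and 1573 CPM. The LPS + Beta-Ac animals were above the LPS animals for both, with LPS animal 239 the lowest. Of 12 erythroid genes tested, 9 were higher without overlap, 6 at an unadjusted p below 0.05 and 0 called by limma or limma-voom, with a median of 1.20 and a summed level of 776 to 2395 CPM against 2787 to 3861 CPM. Without LPS animal 239, 2 erythroid genes were higher at an unadjusted p below 0.05. In the main fit, 6.33% of all genes tested were higher without overlap and 3.38% at an unadjusted p below 0.05. HBA lay between 583 and 1487 CPM in preterm controls, a range that held all 3 LPS + Beta-Ac animals, while LPS animals 239 and 242 were below it. Globin genes have near-identical copies between which reads may have been split. The globin symbols HBB, HBG1, HBG2 and HBZ were not matched to a gene, and whether the HBE1 counts hold reads of other globins was not tested. The part of blood content in the myeloid differences was not tested.

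**Figure D3:**
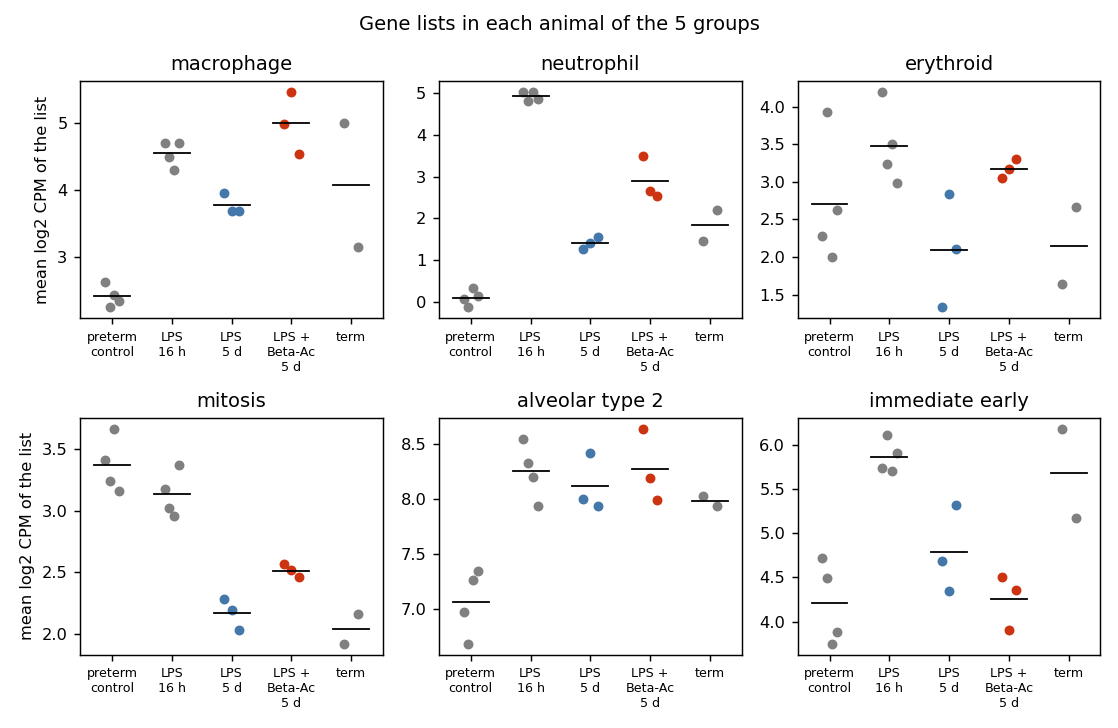
Mean log2 CPM of 6 gene lists in each of the 16 animals (points) with the group mean (bar), for preterm controls, LPS at 16 hours, LPS at 5 days (blue), LPS + Beta-Ac at 5 days (red) and term controls. For the macrophage, neutrophil, erythroid and mitosis lists the red points lie above the blue ones, while for alveolar type 2 genes they overlap.

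None of the cytokine genes listed was called in either direction, and most differences pointed higher with the steroid. CXCL8, the main neutrophil attractant, was at 5.62, 3.61 and 5.08 CPM with LPS and at 23.6, 16.7 and 28.0 CPM with LPS + Beta-Ac. The groups were separated, and the difference of 2.23 ± 0.53 was not called (limma adjusted p = 0.204). IL1B was at 6.13, 7.25 and 7.26 CPM against 38.1, 6.41 and 11.9 CPM, with animal 248 high and the groups overlapping (1.05 ± 0.58, interval -0.20 to 2.30). CCL2 (1.27 ± 0.43), TNF (1.19 ± 0.55) and IL10 (0.85 ± 0.34) did not overlap and were not called, and IL6 (0.52 ± 0.58) overlapped.

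Of 31 cytokine and chemokine genes tested, 8 were higher and 0 lower at an unadjusted p below 0.05, 0 were called by limma or limma-voom, and the median was 0.33. Without LPS + Beta-Ac animal 248 the 8 became 4. The levels of CXCL8 and IL1B were small beside those of the acute response, in which CXCL8 was at 335 to 914 CPM and IL1B at 782 to 1639 CPM. Among 22 genes that limit inflammation, CD163 was the called member. The decoy receptor IL1R2 (2.14 ± 0.46, adjusted p = 0.124) and the receptor antagonist IL1RN (1.32 ± 0.31, adjusted p = 0.167) were higher without overlap, and the inhibitors NFKBIA (-0.12 ± 0.17) and TNFAIP3 (0.11 ± 0.18) lay near 0. Of 21 interferon-stimulated genes 6 and of 14 antigen presentation genes 11 were higher without overlap, the medians were 0.32 and 0.53, and 2 and 7 members were higher at an unadjusted p below 0.05, with 0 called by limma or limma-voom. Without animal 249 these became 0 and 4 members. CD86, a costimulatory ligand, came closest (1.24 ± 0.25, adjusted p = 0.0912). The shares over all genes tested were 6.33% higher without overlap and 3.38% higher at an unadjusted p below 0.05.

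**Figure D4:**
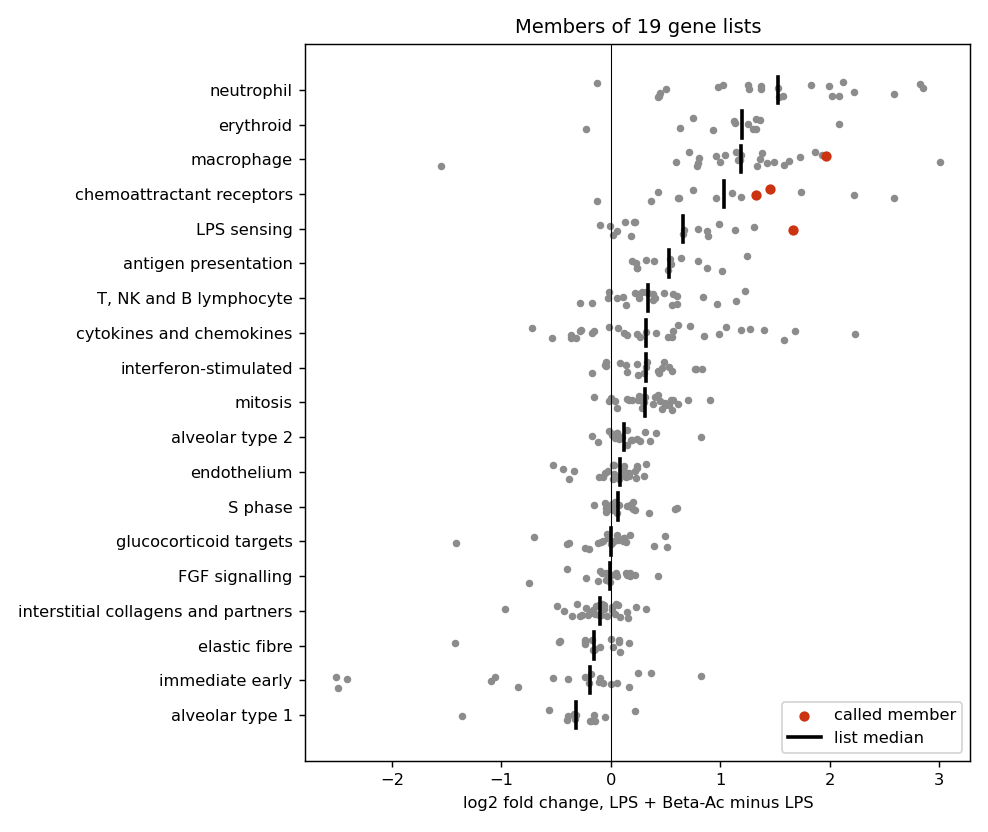
Log2 fold change (LPS + Beta-Ac minus LPS) of each member of 19 gene lists (grey points), called members (red) and list medians (black bars). The medians run from -0.32 for alveolar type 1 genes to 1.53 for neutrophil genes, and no member of the alveolar type 2, collagen or elastic fibre lists was called.

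None of the 24 genes tested in a list of glucocorticoid receptor targets, which does not hold CD163, was called at 5 days. FKBP5, a chaperone that dampens receptor signalling, was at 17.1, 18.1 and 15.1 CPM with LPS and at 25.2, 22.7 and 23.9 CPM with LPS + Beta-Ac. The groups did not overlap, and the difference of 0.51 ± 0.18 was not called (limma adjusted p = 0.631). TSC22D3 (0.14, interval -0.34 to 0.62), PER1 (0.03, interval -0.31 to 0.37) and the receptor gene NR3C1 (-0.11, interval -0.44 to 0.23) overlapped. ZBTB16, a zinc finger factor strongly induced by the receptor, was at -0.70 with an interval of -1.70 to 0.29. Over the list, 1 was higher and 1 lower at an unadjusted p below 0.05, against 3.38% and 1.44% of all genes tested. By limma or limma-voom 0 were called, and the median was 0.0067.

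None of the 4 surfactant genes described here separated the groups. SFTPB, whose protein is needed for surfactant films, was at 4186, 7502 and 4821 CPM with LPS and at 7640, 6316 and 6639 CPM with LPS + Beta-Ac. The ranges overlapped, with a difference of 0.36 and an interval of -0.10 to 0.82. SFTPC was at 5083, 7446 and 4990 CPM against 7206, 6909 and 3892 CPM (0.01, interval -0.90 to 0.92) and SFTPA1, from 3786 to 11655 CPM over the 6 animals, gave 0.31 with an interval of -1.03 to 1.66. ABCA3, the lipid transporter of lamellar bodies, gave 0.26 with an interval of -0.17 to 0.70. Of these 4 intervals, that of SFTPA1 was the one wide enough to hold a change of the size seen for SOD2. Of 20 alveolar type 2 genes tested, 17 were higher and 3 lower, with a median of 0.125. At an unadjusted p below 0.05, 1 (LCN2) was higher, against 3.38% of all genes tested. None was lower at that threshold, and 0 were called.

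Alveolar type 1 genes, which mark the thin gas-exchange epithelium, lay slightly lower. PDPN (-0.57 ± 0.21), CLIC5 (-0.32 ± 0.13), EMP2 (-0.40 ± 0.18) and RTKN2 (-0.39 ± 0.20) were lower without overlap, 3 of the 13 genes tested had an unadjusted p below 0.05, 0 were called by limma or limma-voom, and the median was -0.32. AGER, the receptor most used to mark these cells, overlapped (-0.18, interval -0.98 to 0.62). Without animal 255, 0 of the 13 genes were lower at an unadjusted p below 0.05, and without animal 239 there was 1. Among all genes tested, 5.05% were lower without overlap and 1.44% were lower at an unadjusted p below 0.05.

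None of the genes in the collagen and elastic fibre lists was called. COL1A1, a chain of type I collagen, was at 2537, 3965 and 1317 CPM with LPS and at 2275, 1458 and 1638 CPM with LPS + Beta-Ac. The LPS animals spanned the whole range of the others, and the difference was -0.43 with an interval of -1.15 to 0.29. COL1A2 (-0.28, interval -0.88 to 0.31) and COL3A1 (-0.23, interval -0.69 to 0.24) also overlapped between groups. ELN, elastin, was at 1861, 1830 and 1527 CPM against 1830, 1657 and 1726 CPM, and its interval of -0.28 to 0.29 left little room for a change. Of 30 interstitial collagens and partners, 0 had an unadjusted p below 0.05 in either direction and 0 were called by limma or limma-voom, with a median of -0.098. Without LPS animal 242, 4 were lower at an unadjusted p below 0.05. The growth factors FGF10 (-0.40, interval -0.94 to 0.14) and FGF9 (-0.10, interval -0.97 to 0.78) overlapped between groups. FGF10 was at 5.99, 9.40 and 11.0 CPM against 7.75, 4.89 and 7.05 CPM, below the 10.3 to 16.0 CPM of preterm controls in all but 1 animal (LPS animal 242).

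**Figure D5:**
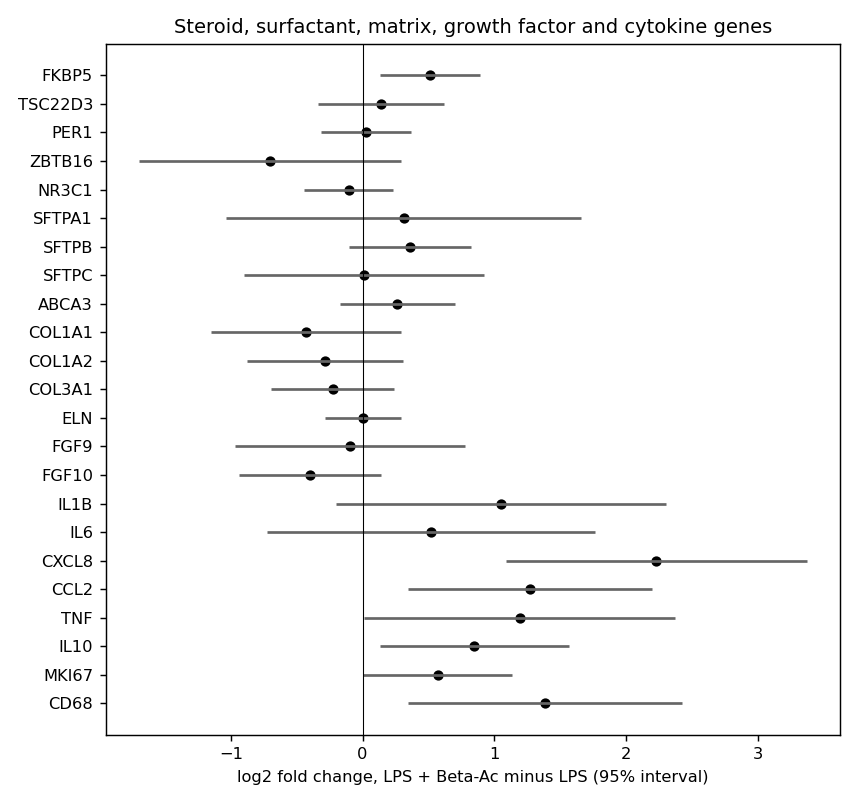
Log2 fold change (LPS + Beta-Ac minus LPS, point) with its 95% interval (line) for 23 genes of steroid response, surfactant, matrix, growth factors, cytokines, division and macrophages. The intervals of all surfactant, matrix and growth factor genes span 0, and those of FKBP5, CXCL8, CCL2, TNF, IL10, MKI67 and CD68 lie above it.

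Genes of cell division lay slightly higher, without a call. MKI67, a protein of dividing cells, was at 18.1, 16.8 and 14.9 CPM with LPS and at 27.7, 22.1 and 24.2 CPM with LPS + Beta-Ac. The groups did not overlap (0.57 ± 0.26, limma adjusted p = 1). Of 29 mitosis genes, 15 were higher without overlap, 9 were higher at an unadjusted p below 0.05 and 0 were called by limma or limma-voom, with a median of 0.31. The 9 became 3 without animals 240, 248 or 255, 2 without animal 249 and 1 without animal 242. As a mean over the list they stood at 2.03 to 2.28 log2 CPM with LPS, 2.46 to 2.56 with LPS + Beta-Ac and 3.16 to 3.67 in preterm controls. Genes of DNA replication (S phase) had a median of 0.067, with 2 of 20 higher without overlap. For comparison, 6.33% of all genes tested were higher without overlap and 3.38% were higher at an unadjusted p below 0.05.

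Immediate early genes, which are transcribed within minutes of a stimulus, pointed lower. EGR1 was at 151, 108 and 503 CPM with LPS and at 91.1, 16.0 and 31.4 CPM with LPS + Beta-Ac. The groups did not overlap, LPS animal 242 was the highest, and the difference of -2.49 ± 0.71 was not called (limma adjusted p = 0.383). DUSP1, a phosphatase that is both an immediate early gene and a glucocorticoid target, was at 490.4, 319 and 695 CPM against 186, 192 and 159.8 CPM (-1.41 ± 0.63, adjusted p = 1). FOS (-2.41 ± 1.14) and FOSB (-2.51 ± 0.91) overlapped between groups, and animal 242 was highest for both. Of 20 immediate early genes, 4 were lower at an unadjusted p below 0.05, against 1.44% of all genes tested, and 0 were called. The 4 became 1 without animal 242 or without animal 249.

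The lower gene nearest to the threshold was MTERF2, a factor of mitochondrial transcription, chosen after its values were seen. It was at 70.3, 73.8 and 89.3 CPM with LPS and at 17.0, 17.0 and 48.2 CPM with LPS + Beta-Ac, without overlap. The MTERF2 log2 fold change was -1.68 ± 0.33 with a limma adjusted p of 0.0878, and without animal 255 it was -2.18 and called (adjusted p = 0.00112).

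Most gene lists had a median near 0, several of them already described above. The lowest of these medians, -0.188, was that of the immediate early list, in which 14 of 20 genes were lower. Of 39 lists, 25 had a median within 0.2 of 0, from -0.188 to 0.185, and 3 of their 467 tested members were called, all named above (CD163, C5AR1 and SOD2). The 25 lists included those for endothelium (0.083), smooth muscle and pericyte (-0.0070), elastic fibre (-0.149), basement membrane (-0.026), Wnt signalling (0.010), hedgehog signalling (0.034), TGF-beta and BMP signalling (0.038), lipid synthesis (0.056), and cell death and p53 (0.075). The ciliated cell list had a median of -1.02, but 0 of its 12 genes passed an unadjusted p of 0.05 and 0 separated the groups, and axonemal genes such as DNAH5 varied from 3.37 to 23.5 CPM within the LPS group alone.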

How the data were processed

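Bulk RNA of 16 fetal lungs was sequenced after polyA selection as 75 bp paired-end reads. The deposited table holds a whole-number count for each of 22515 Ensembl genes in each animal. These counts were made by the authors with kallisto on the Mmul_10 build and tximport, and the authors tested groups with DESeq2. Their versions were not given in the sources used. Symbols were found for 17256 genes, and XIST was not matched.

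Library sizes were corrected with TMM factors (a trimmed mean of log ratios). A gene was tested if it reached 0.371 CPM (equal to 10 counts at median depth) in 2 or more libraries and 15 counts in all, which 19199 did. Log2 CPM with a prior count of 2 was fitted in limma 3.58.1 (R 4.3.3) with trend and robust options and 1 mean per group over all 16 lungs, so all log2 changes are on that scale and understate those of low genes. A call needed an adjusted p (Benjamini-Hochberg) under 0.05 and a change of 2-fold or more. Intervals are at 95%. Lists carry no test and are given by counts and medians. The 6 animals were separate fetuses, and chi-square per degree of freedom between replicates of a group was 34.5 to 66.1, so no library was a copy of another. Total counts per library were 20169363 to 48052891. The code was tested on simulated counts. Alternatives were another scaling, no filter, limma-voom, the 6 animals alone, gestational age, another prior count, no minimum fold, each animal left out, and Y-linked transcripts as a covariate. The authors' counts were not put through count models, and promoter sequences were not used here.

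The genes and lists were chosen with earlier results of these data known. Lists for Fc receptors, Fc receptor signalling, NADPH oxidase, chemoattractant receptors, tryptophan breakdown and heart muscle, and some single genes, were added after values were seen. Named genes were up to 15 called genes per direction with the largest change, without overlap and with at least 1 CPM in the higher group, a set of steroid, surfactant, matrix, growth factor and cytokine genes whatever their values, and of each list up to 4 called members or otherwise the 2 with the highest level. Further members were named after their values were seen. Results for 2 called genes are not reported here.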

Additional observations from a re-analysis of the deposited data

Results flagged for a closer look

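Among 112 groups of 4 animals tested for 1 animal standing apart, 2 were picked out, where chance picks out about 1 in 20. Both lay in the preterm controls. The compared groups, of 3 animals each, were too small for this screen and were not tested. FGF10 was at 3.37 log2 CPM in preterm animal 209, below the 3.90 to 4.01 of the other 3. IL6 was at -1.65 log2 CPM in preterm animal 113, above the -3.23 to -3.10 of the others. The IL6 values of the others lie near the floor set by the prior count of 2, so this difference rests on few reads.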

How the results depend on the processing

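The 20 calls, all higher with Beta-Ac, became 20 with median-of-ratios scaling, 18 without the filter (17 of them among the 20), 16 with a prior count of 0.5 and 20 with no minimum fold. The alternative with no minimum fold was the main fit under a looser rule. It could lose no call and move no value, and the tallies over 14 alternatives and 630 list medians below include it. The calls became 3 with limma-voom and 7 with Y-linked transcripts as a covariate, an alternative chosen after seeing the data. Such transcripts were counted as present in 3 of the 4 lungs at 16 hours, where the paper lists 2 males and 2 females. Animal 035 had a mean of 0.216 log2 CPM over the sex-linked list, against 4.889 and 4.953 in animals 026 and 029. The 7 calls may therefore rest on a wrong assignment of animal 035 and do not settle the part of the Y-linked difference. The fit of the 6 animals alone called 0 (smallest adjusted p 0.0688, with 809 genes higher and 418 lower at an unadjusted p below 0.05), and 0 were called with gestational age added (smallest adjusted p 0.303, with 1072 and 620). Leaving out 1 animal gave 2 to 57 calls, 2 to 55 higher and 0 to 2 lower. The number was 6 without animal 239, 2 without 240, 12 without 242, 5 without 248, 4 without 249 and 57 without 255. Of these, 5, 2, 11, 3, 3 and 19 in that order were among the 20. The cause was not tested. In all 14 alternatives each of the 20 genes stayed higher at an unadjusted p below 0.05. SOD2 was called in 12 of the 14, FCAR in 11, and CD163, VAV1 and SEMA4A in 3 each. Of 630 list medians under the alternatives, 31 moved by more than 1 SD. No paired analysis was possible because the groups share no animal numbers. Negative binomial count models were planned and not run. With 3 animals per group and a median SE of 0.23 on the log2 scale, small changes were not detectable.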
